A study of Mus musculus with 12 samples.

Results

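A set of 10 genes that mark reactive astrocytes was followed in the brains of mice with and without Tet2-mediated clonal hematopoiesis at 14 d post-stroke: Gfap, Vim, Nes, Lcn2, Serpina3n, Osmr, Cd44, S1pr3, Steap4 and Aspg. They were chosen by gene symbol, and all 10 of 10 were found once among the 49315 genes of the count table and were among the 20290 genes that passed the expression filter. The bulk RNA-seq libraries came from 6 WT and 6 Tet2-KO mice. Every mouse was a male CD45.1 Pep Boy recipient of 8 to 12 weeks that was irradiated with the head shielded and received bone marrow (BM) made of 90% CD45.1 Tet2+/+ cells. The other 10% was CD45.2 Tet2-/- marrow in the Tet2-KO group and CD45.2 Tet2+/+ marrow in the WT group, from donors of up to 14 weeks. All 12 mice then had a stroke, a transient occlusion of the middle cerebral artery for 30 min at 8 to 10 weeks after the transplant. The resident brain cells of every recipient were therefore Tet2+/+, and the genotype differed in a fraction of the blood cells. The treatment label of the Tet2-KO libraries names control cells, and their title and genotype labels give Tet2-KO, which was used here.

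Astrocytes answer injury by enlarging, by building more intermediate filament protein and by secreting acute-phase proteins, and those next to an infarct form a border around it. Cytokines of the interleukin 6 family, which signal through the shared receptor Il6st to the transcription factor Stat3, are well known inducers of this state. Several of the 10 genes are used by other cells as well: Vim by endothelial cells, fibroblasts and microglia, Cd44 by leukocytes, Lcn2 by neutrophils and Steap4 by cells of the vessel wall. In bulk tissue, fewer cells of a type and less RNA per cell cannot be told apart, and the 10 genes were measured in the same 12 libraries, so they are not replicates of each other.

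The libraries held 12000261 to 15340787 counts in WT mice and 12625047 to 21049763 in Tet2-KO mice. Tet2 itself ranged from 126 to 147 CPM (counts scaled per 1000000) in WT brains and from 117 to 137 in Tet2-KO brains (log2 fold change -0.01, SE 0.05), a value that does not check the labels, since the deletion was carried by a fraction of the transplanted cells. WT replicate 2 stood apart from the other WT mice on the first principal component, and Tet2-KO replicate 5 lay within the WT mice on it. The values of the 10 genes and the counts of the gene lists that moved by over 1.5 times without either of these mice are given in both forms. The markers of resting astrocytes were present at a high level in every brain: the summed CPM of 14 of them (Aldh1l1, Aqp4, Slc1a2 and others) was 7973 to 8394 in WT and 8122 to 9281 in Tet2-KO mice. Slc1a2 alone held a mean of 4063 of 8205 CPM of this sum in WT and 4459 of 8553 CPM in Tet2-KO mice.

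The bases before the transcription start are shown for 3 of the genes, because Steap4 and Lcn2 had the greatest differences between the groups and Serpina3n is compared with Steap4 in its ratio to Gfap. They are from RefSeq (GRCm38.p6, the assembly of mm10), written 5′ to 3′ on the gene's strand. Capitals mark matches, on either strand, to a STAT-type motif (TTCNNNGAA), a C/EBP-type motif (TTGCNNAA) or the NF-kB consensus. The Steap4 and Serpina3n stretches (chr5:7960222-7960456, + strand, and chr12:104406458-104406707, + strand) lie before the annotated gene. The Lcn2 stretch (chr2:32387938-32387965, - strand) lies within the span of the gene, since an annotated transcript starts farther upstream.
Steap4: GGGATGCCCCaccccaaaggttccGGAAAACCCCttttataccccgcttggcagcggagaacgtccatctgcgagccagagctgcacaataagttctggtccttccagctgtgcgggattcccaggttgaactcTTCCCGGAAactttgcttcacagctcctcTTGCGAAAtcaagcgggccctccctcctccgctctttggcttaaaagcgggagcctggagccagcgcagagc
Serpina3n: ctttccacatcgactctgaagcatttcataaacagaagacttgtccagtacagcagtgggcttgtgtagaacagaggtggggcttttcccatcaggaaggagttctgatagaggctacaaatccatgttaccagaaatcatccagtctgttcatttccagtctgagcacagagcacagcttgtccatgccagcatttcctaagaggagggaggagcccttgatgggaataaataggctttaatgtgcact
Lcn2: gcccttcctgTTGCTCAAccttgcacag
In the 250 bases before the RefSeq start, the STAT-type motif was found in 1 of the 10 genes, Steap4, at bases 116 to 108 before the start, and in 7.02% of 32851 promoters. The C/EBP-type motif was found in Lcn2 and Steap4 and in 9.56% of all promoters. The NF-kB consensus was found in Vim and, in 2 places, in Steap4, against 3.9% of all promoters. An AP-1-type motif (TGANTCA) matched in 0 of the 10 genes and in 6.75% of all promoters. Steap4 was thus the one gene of the 10 with a match to 3 of the 4 motifs. The share of all promoters with matches to 3 of the 4 was not computed. A match describes the letters in this window and says nothing of binding.

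All 10 genes had a lower fitted level in Tet2-KO than in WT brains (against 47.7% of all genes tested), with a median log2 fold change of -0.79 beside 0.01 over all genes. The differences ran from 1.27-fold for Gfap to 4.27-fold for Steap4, and 3 genes (Steap4, Lcn2 and Cd44) had a log2 fold change of -1 or lower, against 2.07% of all genes. For every one of the 10, at least 5 of the 6 Tet2-KO mice lay below the WT mean, against 26.5% of all genes. This did not hold for 4 of them when the WT mean left out WT replicate 2. Tet2-KO replicates 2 and 4 then lay above it for Gfap, and replicates 4 and 5 for Vim, Nes and Aspg. None of the differences passed the test across all genes: with edgeR's quasi-likelihood test, 0 of 10 had an adjusted p below 0.05, where 0.0246% of all genes did, all of them lower. At an unadjusted p below 0.05, 5 of 10 were lower (Lcn2, Osmr, Cd44, S1pr3 and Steap4), against 12.2% of all genes. DESeq2 also called 0 of 10, against 3.32% of genes called lower. At an unadjusted p below 0.05 it had 7 of 10, against 13.2% of all genes in either direction. The same 5 genes passed an adjusted p below 0.05 with limma-voom and quality weights, against 7.01% of all genes called lower. No gene of the 10 separated the groups, since the Tet2-KO mice overlapped the WT mice for each of them (every Tet2-KO mouse lay below every WT mouse for 0.641% of all genes).

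**Figure D1:**
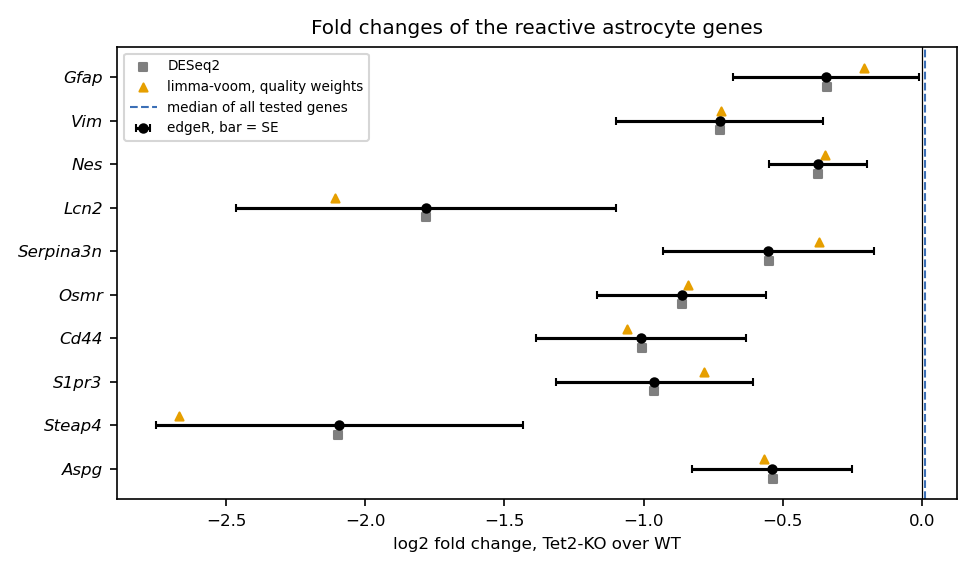
The log2 fold change of each gene (Tet2-KO over WT, horizontal axis) with its SE from edgeR (black), and the estimates of DESeq2 (grey squares) and limma-voom (orange triangles). All 10 lie left of 0, from -0.34 for Gfap to -2.09 for Steap4, and the dashed line marks the median of all tested genes at 0.01.

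The intermediate filament genes were among the smaller differences. Gfap, the filament protein by which astrocytes are stained, had a lowest, median and highest level of 740, 928 and 1929 CPM in WT mice and of 359, 823 and 1487 CPM in Tet2-KO mice. The groups overlapped widely: Tet2-KO replicates 1 and 6 lay below all WT mice, and Tet2-KO replicate 4 above all WT mice but replicate 2. The log2 fold change was -0.34 (SE 0.33, edgeR adjusted p = 0.578). Leaving out WT replicate 2 gave -0.08, and leaving out Tet2-KO replicate 4 gave -0.59, so the size of the Gfap difference depended on single mice.

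Vim, the filament partner of Gfap, had levels of 218, 258 and 520 CPM in WT mice and 62.0, 157 and 309 CPM in Tet2-KO mice. The Tet2-KO mice other than replicates 4 and 5 lay below every WT mouse, and those 2 lay within the WT range. Its log2 fold change was -0.73 (SE 0.37, edgeR adjusted p = 0.269). Nes, the filament protein of neural stem cells that injured astrocytes take up again, had the least relative spread in WT mice, at 11.9, 14.3 and 19.3 CPM, and was at 7.06, 11.2 and 15.8 CPM in Tet2-KO mice. Its log2 fold change was -0.37 (SE 0.18, edgeR adjusted p = 0.225). Of 10 further genes of the filament network, 1 (Prph, a peripheral neuron filament, log2 fold change -0.75, edgeR adjusted p = 0.148) had an unadjusted p below 0.05, and their median was 0.00. The count was 2 without Tet2-KO replicate 5 and 0 when at least 10 counts were asked of every library. The neurofilament gene Nefl was at 0.09 (SE 0.08) on the log2 scale. Vim and Nes were thus lowest in the same mice as Gfap, Tet2-KO replicates 1 and 6.

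The secreted proteins differed from each other in size. Lcn2, lipocalin 2, an iron-siderophore carrier of the acute phase that reactive astrocytes release, was at 27.2, 42.6 and 132 CPM in WT mice and at 1.30, 9.79 and 39.1 CPM in Tet2-KO mice. The lowest Tet2-KO mouse, replicate 1, held 21 Lcn2 counts, and the highest, replicates 4 and 5, fell within the WT range. This was a log2 fold change of -1.78, or 3.44-fold (SE 0.68, edgeR adjusted p = 0.167). Among the genes of its receptors, Slc22a17 was higher at an unadjusted p below 0.05 (log2 fold change 0.15, edgeR adjusted p = 0.179), while Lrp2 and Mc4r were at -0.24 and 0.24. The call of Slc22a17 was lost without WT replicate 2 or 5 or Tet2-KO replicate 1, 2 or 3.

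Serpina3n, a secreted inhibitor of serine proteases, was at 129, 162 and 406 CPM in WT and at 52.7, 133 and 248 CPM in Tet2-KO mice. Tet2-KO replicates 1, 3 and 6 lay below all WT mice, and Tet2-KO replicate 4 exceeded all WT mice but replicate 2. Its log2 fold change was -0.55 (SE 0.38, edgeR adjusted p = 0.414) and was -0.21 without WT replicate 2. The genes of the mouse Serpina3 cluster are close in sequence, and reads that did not map uniquely were not counted. Of 10 other genes of the cluster, 9 did not pass the expression filter and 3 of these had 0 counts in all mice. The tested one, Serpina3g, had a log2 fold change of -0.92 (SE 0.20, edgeR adjusted p = 0.110, DESeq2 adjusted p = 0.00675).

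All 3 receptors had a lower level at an unadjusted p below 0.05. Osmr, the receptor for oncostatin M, was at 36.4, 44.4 and 75.7 CPM in WT and at 10.8, 24.6 and 41.9 CPM in Tet2-KO mice, where Tet2-KO replicates 1, 2, 3 and 6 lay under the whole WT range. Its log2 fold change was -0.86 (SE 0.30, edgeR adjusted p = 0.148). Among 6 receptor genes of the interleukin 6 family, Osmr included, 3 had an unadjusted p below 0.05, all lower. The other two were Il6st, the shared signalling chain (log2 fold change -0.45, SE 0.15, edgeR adjusted p = 0.134), and Il6ra (-0.65, SE 0.24, edgeR adjusted p = 0.160). Of the ligands of this family, Osm, which encodes oncostatin M, was at 1.79 ± 0.954 CPM in WT and 0.919 ± 0.566 CPM in Tet2-KO mice (SD, n = 6; log2 fold change -1.01, SE 0.37, edgeR adjusted p = 0.147). It was 1 of 5 tested ligand genes at an unadjusted p below 0.05, and Il6 and Il11 were too low to be tested, with 14 and 34 counts in all WT mice together. The count of ligands was 2 without WT replicate 5 or Tet2-KO replicate 4 or 5. It was 0 when at least 10 counts were asked of every library, as Osm had 8 counts in its lowest Tet2-KO library. Downstream, 6 of 10 genes of the JAK and STAT3 list were lower at an unadjusted p below 0.05. Socs3, the feedback inhibitor that Stat3 induces, had a log2 fold change of -1.38 (SE 0.36, edgeR adjusted p = 0.117, DESeq2 adjusted p = 0.0174), Bcl3 of -1.20 (SE 0.37) and the kinase gene Tyk2 of -0.28 (SE 0.08). Some ligand, receptor and target genes of the pathway were thus among the genes with lower values, with none of the named ones past the edgeR threshold. Of the tested genes, 1 of 5 ligands and 2 of 6 receptors had a higher fitted level in Tet2-KO mice.

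Cd44, the cell surface receptor for hyaluronan and osteopontin, was at 43.1, 50.9 and 105 CPM in WT and at 10.2, 23.2 and 49.4 CPM in Tet2-KO mice. The same 4 Tet2-KO mice lay under the WT range, and replicates 4 and 5 were close to the WT median. The fitted log2 fold change was -1.01 (SE 0.38, edgeR adjusted p = 0.161). Of 11 genes for ligands, hyaluronan synthases and partners of Cd44, 4 were lower at an unadjusted p below 0.05. Mmp14, a membrane protease that cleaves Cd44, had a log2 fold change of -1.11 (SE 0.31, edgeR adjusted p = 0.121), Mmp9 of -0.95 (SE 0.24, edgeR adjusted p = 0.110) and the hyaluronan synthase gene Has2 of -1.08 (SE 0.34).

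S1pr3, a receptor for sphingosine 1-phosphate, was at 33.6, 44.5 and 109 CPM in WT and at 14.8, 24.6 and 48.3 CPM in Tet2-KO mice. All Tet2-KO mice but replicate 4 lay under the WT range. For S1pr3 the log2 fold change was -0.96 (SE 0.35, edgeR adjusted p = 0.157), or -0.62 without WT replicate 2. An exon of S1pr3 overlaps the gene Gm32834 on the opposite strand, and reads of the pair cannot be told apart without strand. Of 9 other genes of the sphingosine 1-phosphate system, 4 were lower at an unadjusted p below 0.05, among them S1pr2 (log2 fold change -0.85, SE 0.27, DESeq2 adjusted p = 0.0294), the kinase gene Sphk1 (-0.46, SE 0.16) and the lyase gene Sgpl1 (-0.61, SE 0.23). Without WT replicate 2, 2 of the 9 reached that level.

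The enzymes held the greatest difference of the 10 genes. Steap4, a metalloreductase of the cell surface and endosomes induced by cytokines, was at 14.2, 20.2 and 50.4 CPM in WT and at 0.744, 2.54 and 14.5 CPM in Tet2-KO mice. The Tet2-KO mice other than replicate 4 lay below all WT mice, with 12 counts in the lowest, and replicate 4 lay just above the lowest WT mouse. The log2 fold change was -2.09, or 4.27-fold (SE 0.66, edgeR adjusted p = 0.131, DESeq2 adjusted p = 0.0546). Of its 3 relatives, Steap3 had a log2 fold change of -1.07 (SE 0.36, edgeR adjusted p = 0.140), while Steap1 and Steap2 were at -0.24 (SE 0.32) and -0.08 (SE 0.08). Aspg, an asparaginase, had the lowest WT level of the 10 genes in CPM, at 6.10, 7.73 and 11.7 in WT and 2.66, 5.41 and 9.96 in Tet2-KO mice, with a log2 fold change of -0.54 (SE 0.29, edgeR adjusted p = 0.283).

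**Figure D2:**
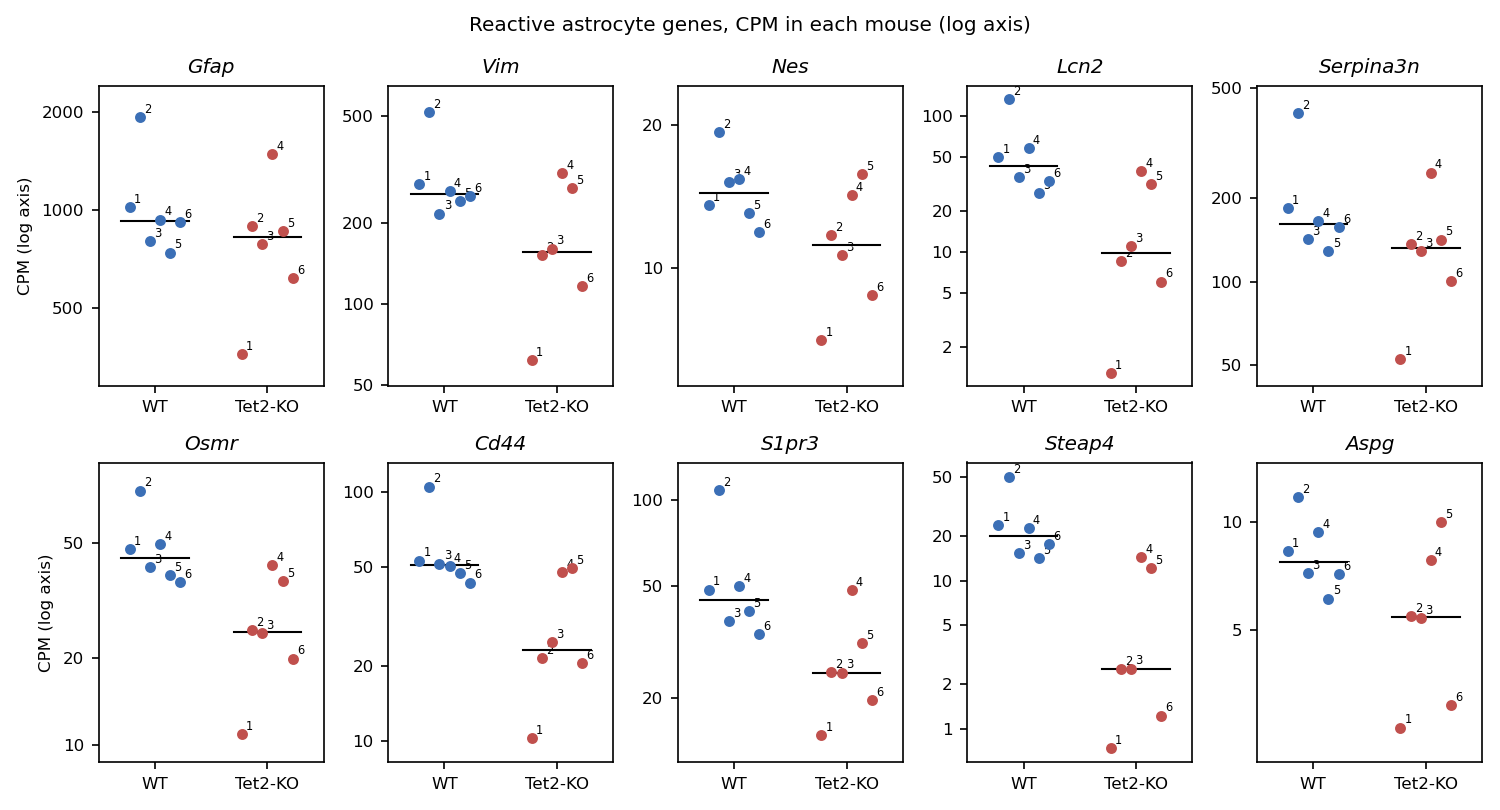
CPM of each gene (vertical log axis) in the 6 WT (blue) and 6 Tet2-KO (red) mice, numbered by replicate, with the group median as a line. WT replicate 2 is the highest mouse in all 10 panels, Tet2-KO replicate 1 is the lowest in all 10, and Tet2-KO replicates 4 and 5 lie near or within the WT mice.

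The mice kept much the same order from gene to gene. WT replicate 2 was the highest of the 12 mice for all 10 genes and Tet2-KO replicate 1 the lowest for all 10. Tet2-KO replicates 1 and 6 were below every WT mouse for 10 genes, replicate 3 for 9 and replicate 2 for 8. Tet2-KO replicate 5 was below every WT mouse for 2 genes and replicate 4 for 0, so the Tet2-KO group held 4 mice with low values and 2 with values like those of WT mice. The median over the 10 genes of the difference from the WT mean, on the log2 scale, was 0.93 in WT replicate 2 and -0.34 to 0.05 in the other WT mice. In the Tet2-KO mice it was -0.04 in replicate 4, -0.28 in replicate 5, -0.88 and -0.90 in replicates 3 and 2, -1.29 in replicate 6 and -1.94 in replicate 1.

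**Figure D3:**
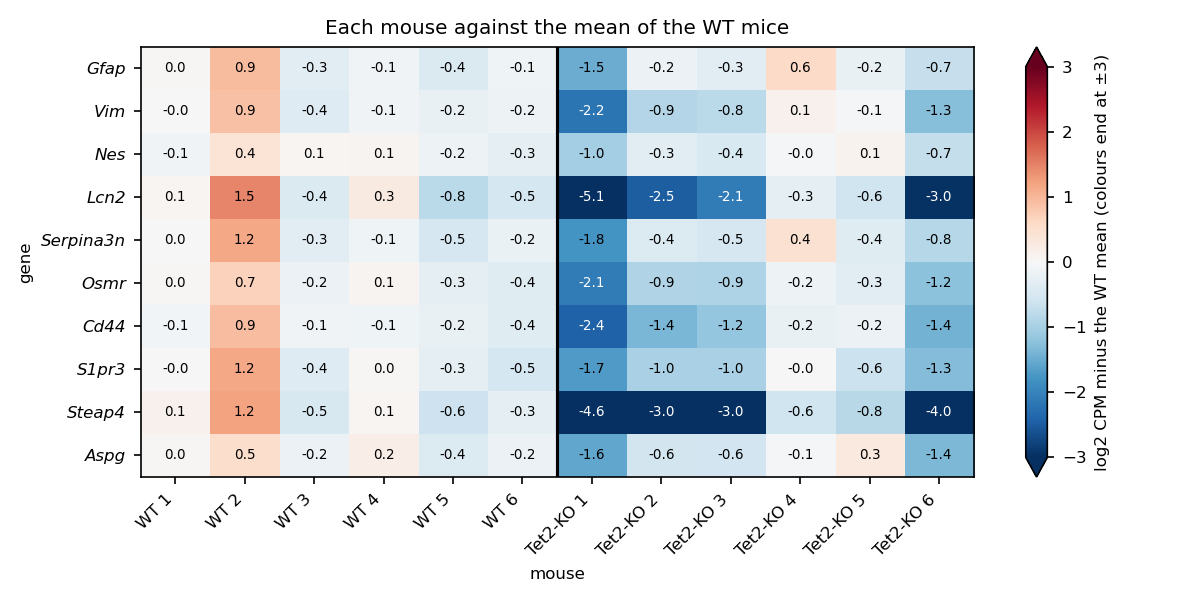
Log2 CPM of each gene (rows) in each mouse (columns) minus the mean of the 6 WT mice, with the value printed in each cell and red for higher, blue for lower. The column of WT replicate 2 is red throughout, those of Tet2-KO replicates 1 and 6 are blue throughout, and Lcn2 and Steap4 hold the lowest values.

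Single mice moved the counts of called genes. The number at an unadjusted p below 0.05 was 3 of 10 without WT replicate 2 (Osmr, S1pr3 and Steap4). It was 8 of 10 without either Tet2-KO replicate 4 or replicate 5. The share of all genes at that level, in either direction, moved with the same mice. It was 23.1% with all mice and 15.3% without WT replicate 2. Without Tet2-KO replicate 4 it was 26.3%, and without replicate 5 it was 28.0%. With both WT replicate 2 and Tet2-KO replicate 5 left out, 6 of 10 and 22.9% of all genes reached that level. The median log2 fold change of the 10 was then -0.65. The number with an edgeR adjusted p below 0.05 was 0 of 10 without any 1 of the 12 mice. Without Tet2-KO replicate 5 it was still 0 of 10, with the smallest adjusted p at 0.0508 for Steap4, although 2257 of 20525 genes then passed.

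The genes differed in level as well as in change, and their order per length of transcript was compared in reads per 1000 bases of exon and 1000000 counts (RPKM). In WT mice Gfap had the highest mean RPKM at 251 ± 104 (SD, n = 6), followed by Serpina3n at 95.7 ± 50.3, Vim at 62.3 ± 23.5, Lcn2 at 21.4 ± 14.9 and S1pr3 at 11.9 ± 6.27. Below these came Cd44 at 8.60 ± 3.39, Steap4 at 7.62 ± 4.27, Osmr at 3.97 ± 1.19, Aspg at 2.35 ± 0.568 and Nes at 2.29 ± 0.405. Each gene was above the next in every WT mouse, except that Cd44 was above Steap4 in 5 of 6 and Aspg above Nes in 4 of 6. In Tet2-KO mice, Lcn2 at 6.20 ± 5.83 was above S1pr3 at 6.10 ± 2.62 in 2 of 6 mice, and Steap4 at 1.78 ± 1.92 was above Osmr at 2.18 ± 0.934 in 2 of 6. Gfap, Serpina3n and Vim kept their order in all 12 mice.

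Gfap was next set against the resting astrocyte markers of the same brain, to ask whether it differed per unit of astrocyte transcript. The log2 CPM of Gfap minus the mean log2 CPM of the 14 markers was 2.12 ± 0.392 in WT and 1.77 ± 0.571 in Tet2-KO mice (SD, n = 6), a difference of -0.35 with an exact permutation p = 0.271 (two-sided, over all assignments of mice, smallest possible p 0.00216). Leaving out WT replicate 2 gave -0.20, and leaving out Tet2-KO replicate 1 gave -0.15. The 14 markers themselves had a median log2 fold change of 0.00, with 7 lower and 7 higher. Slc1a2, the main glutamate transporter, was higher at an unadjusted p below 0.05 (log2 fold change 0.13, SE 0.06, edgeR adjusted p = 0.202), a call that was lost without any 1 of WT replicates 1, 2, 4 and 6 and Tet2-KO replicates 1, 2, 3 and 6. Aqp4, the water channel of astrocyte endfeet, was at -0.40 (SE 0.22, edgeR adjusted p = 0.302). On the same scale the mean of Steap4 was -3.40 in WT and -6.04 in Tet2-KO mice, and all 6 Tet2-KO mice lay below all WT mice. For the other 9 genes, Gfap included, 2 to 5 Tet2-KO mice did. The share of all genes that separated the groups on this scale was not computed.

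Whether the other 9 genes differed beyond Gfap was described by the ratio of each to Gfap in the same mouse, a measure added after the values were seen. The ratios share the Gfap value of each mouse. As a percent of Gfap, Steap4 was 1.94 to 2.62 in WT and 0.221 to 1.43 in Tet2-KO mice, and Serpina3n was 17.2 to 21.1 in WT and 14.7 to 16.7 in Tet2-KO mice. For both genes the groups did not overlap, which was so for 0.133% of the 20289 other tested genes. Lcn2 was 3.62 to 6.87 percent of Gfap in WT and 0.400 to 3.67 percent in Tet2-KO mice, with 5 of 6 Tet2-KO mice under the WT range. The same count of 5 was found for Vim, Osmr, Cd44 and S1pr3, and at least 5 for 2.34% of all genes. The mean log2 ratio was lower by 2.30 for Steap4, 1.86 for Lcn2, 0.74 for Cd44, 0.55 for Osmr and for S1pr3, 0.46 for Vim and 0.19 for Serpina3n. The median over all genes was 0.40 higher. Each of these 7 ratios had an exact two-sided permutation p below 0.05 (2.91% of all genes, lower), from 0.00216 to 0.0130, and none passed adjustment over all 20289 ratios (adjusted p = 0.509). For Aspg and Nes the ratio differed by -0.25 (exact permutation p = 0.247) and -0.01 (exact permutation p = 0.965). Without Tet2-KO replicate 5 the ratio of Aspg differed by -0.40 (exact permutation p = 0.0325).

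**Figure D4:**
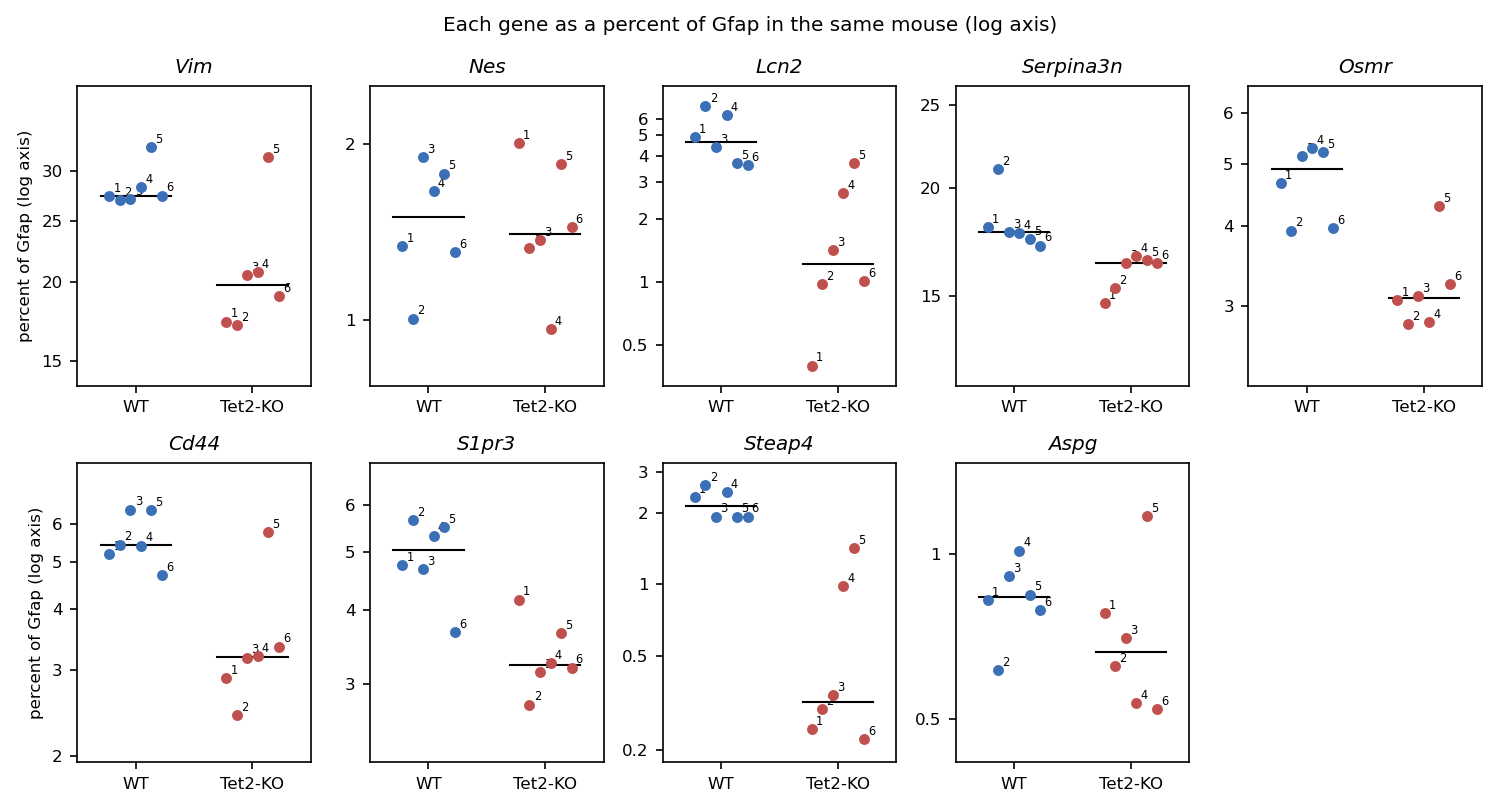
Each gene as a percent of Gfap in the same mouse (vertical log axis), for WT (blue) and Tet2-KO (red) mice numbered by replicate, with the group median as a line. Steap4 and Serpina3n do not overlap between the groups, while Nes and Aspg overlap widely.

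Most other genes listed for reactive astrocytes had values in the same direction. The cells that held these transcripts were not resolved in bulk tissue. The 4 further genes that are raised in most kinds of astrocyte reactivity were all lower at an unadjusted p below 0.05, among them Timp1, a metalloprotease inhibitor (log2 fold change -0.96, SE 0.26, edgeR adjusted p = 0.116, DESeq2 adjusted p = 0.0122), Cxcl10 (-1.26, SE 0.40, edgeR adjusted p = 0.131) and the ferroxidase gene Cp (-1.05, SE 0.34, edgeR adjusted p = 0.133). Of 11 tested genes of the lipopolysaccharide-type (A1) list, 8 were lower at that level, with Serping1, a complement inhibitor, at -1.36 (SE 0.45) and Srgn at -1.13 (SE 0.32, DESeq2 adjusted p = 0.0338). Whatever the p, 9 of these A1 genes had a lower and 2 a higher fitted value in Tet2-KO mice. Of 11 tested genes of the ischemia-type (A2) list, 7 were lower, with Ptx3 at -1.31 (SE 0.43, DESeq2 adjusted p = 0.0409) and Emp1 at -1.09 (SE 0.39). Leaving out WT replicate 2 brought the A2 count to 3, and leaving out Tet2-KO replicate 3 brought it to 4. The median log2 fold change was -1.004 for the first list, -0.86 for the A1 list and -0.55 for the A2 list, against 0.01 over all genes. Genes of both kinds of reactivity were thus among those with lower values. Of 11 factors that set astrocyte fate or reactivity, 5 had an unadjusted p below 0.05, 4 of them lower: Atf3, a stress factor, was at -1.44 (SE 0.45), Klf6 at -0.21 (SE 0.07) and Rorb at 0.26 (SE 0.08). For Atf3 all 6 Tet2-KO mice lay below all WT mice, as for 0.641% of all genes. The gap was narrow, with 11.1 CPM in the highest Tet2-KO mouse and 11.3 CPM in the lowest WT mouse.

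The genes most like the mean of the 10 across the 12 libraries, by Pearson's r of log2 CPM and leaving out the 10 themselves, were Plcg2 (r = 0.993), Irf9 (0.992), Trim56 (0.992), Plxnb2 (0.990) and A2m (0.989). Plcg2 encodes a phospholipase of immune cell signalling, Irf9 and Trim56 act in interferon responses, Plxnb2 is a semaphorin receptor and A2m a protease inhibitor. Within the 10, which form the mean, r was highest for Osmr (0.994) and Lcn2 (0.993) and lowest for Gfap (0.896). These are descriptions over libraries that share the same differences between mice.

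Markers of several other cell types differed between the groups along with the 10 genes, and their part in the differences was not tested. Of 8 activated phagocyte markers, 6 were lower at an unadjusted p below 0.05 (Lgals3 at -1.95, SE 0.62), and their summed CPM was 3101 to 7400 in WT and 732 to 3862 in Tet2-KO mice, highest in WT replicate 2 and lowest in Tet2-KO replicate 1. Without WT replicate 2, 3 of the 8 reached that level. Apoe made up most of the phagocyte sum, with a mean of 2637 of 4252 CPM in WT and 1337 of 1855 CPM in Tet2-KO mice. All 7 fibroblast markers were lower at an unadjusted p below 0.05, and 4 of 7 without WT replicate 2 (Dcn at -1.30, SE 0.36), with sums of 597 to 1334 CPM in WT and 150 to 757 CPM in Tet2-KO mice. All 5 tested neutrophil markers were lower, and S100a8 and S100a9 passed the edgeR test (adjusted p = 0.0364 for each, log2 fold change -2.16 and -2.84). S100a9 had 13 to 52 counts in WT and 1 to 10 in Tet2-KO libraries, and it passed the expression filter through its WT level. The count of neutrophil markers was 1 when at least 10 counts were asked of every library. The sum of the 10 neutrophil markers was 71.6 to 159 CPM in WT and 23.3 to 81.0 CPM in Tet2-KO mice, most of it Csf3r. The defining marker Ly6g did not pass the filter, with 2 counts in all WT mice and 0 in all Tet2-KO mice. Ngp, Camp, Ltf and Retnlg did not pass it either. They had 61, 17, 33 and 46 counts in all WT mice and 58, 15, 18 and 47 in all Tet2-KO mice. Endothelial markers were lower in 4 of 8 genes (Cldn5 at -0.45, SE 0.13, sums of 224 to 281 CPM in WT and 201 to 241 CPM in Tet2-KO mice) and pericyte markers in 2 of 6 (Pdgfrb at -0.58, SE 0.18, sums of 300 to 409 and 204 to 323 CPM). Whatever the p, 4 pericyte markers had a lower and 2 a higher fitted level in Tet2-KO mice, with Abcc9 at 0.14 (SE 0.07). Homeostatic microglia markers were lower in 1 of 8, a share near the 12.2% of all genes, with sums of 687 to 1249 and 325 to 874 CPM. It was Fcrls at -0.75 (SE 0.32), lost without any 1 of WT replicates 1 and 2 and Tet2-KO replicates 1, 2, 3 and 6, and the count was 2 without Tet2-KO replicate 4 or 5. Of 8 ependymal and choroid plexus markers 2 were lower (Aqp1 at -0.53, SE 0.16), with sums of 512 to 688 and 411 to 706 CPM, and the count was 5 without Tet2-KO replicate 4. Neuron markers were higher in 7 of 8 (against 10.8% of all genes higher, Rbfox3 at 0.31, SE 0.09), with sums of 3724 to 5354 CPM in WT and 4870 to 6499 CPM in Tet2-KO mice. The neuron count was 4 without Tet2-KO replicate 1 or 3. Neural progenitor markers were lower in 1 of 7 (Sox2 at -0.19) and higher in 1 (Neurod1 at 0.40), shares near the 12.2% and 10.8% of all genes, with sums of 159 to 187 and 168 to 189 CPM. Oligodendrocyte markers reached that level in 0 of 6, with sums of 4822 to 6315 and 4479 to 6262 CPM. Tet2-KO replicates 4 and 5, in which the reactive astrocyte genes were near the WT level, also had the highest phagocyte, fibroblast, neutrophil and microglia sums of the Tet2-KO group.

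**Figure D5:**
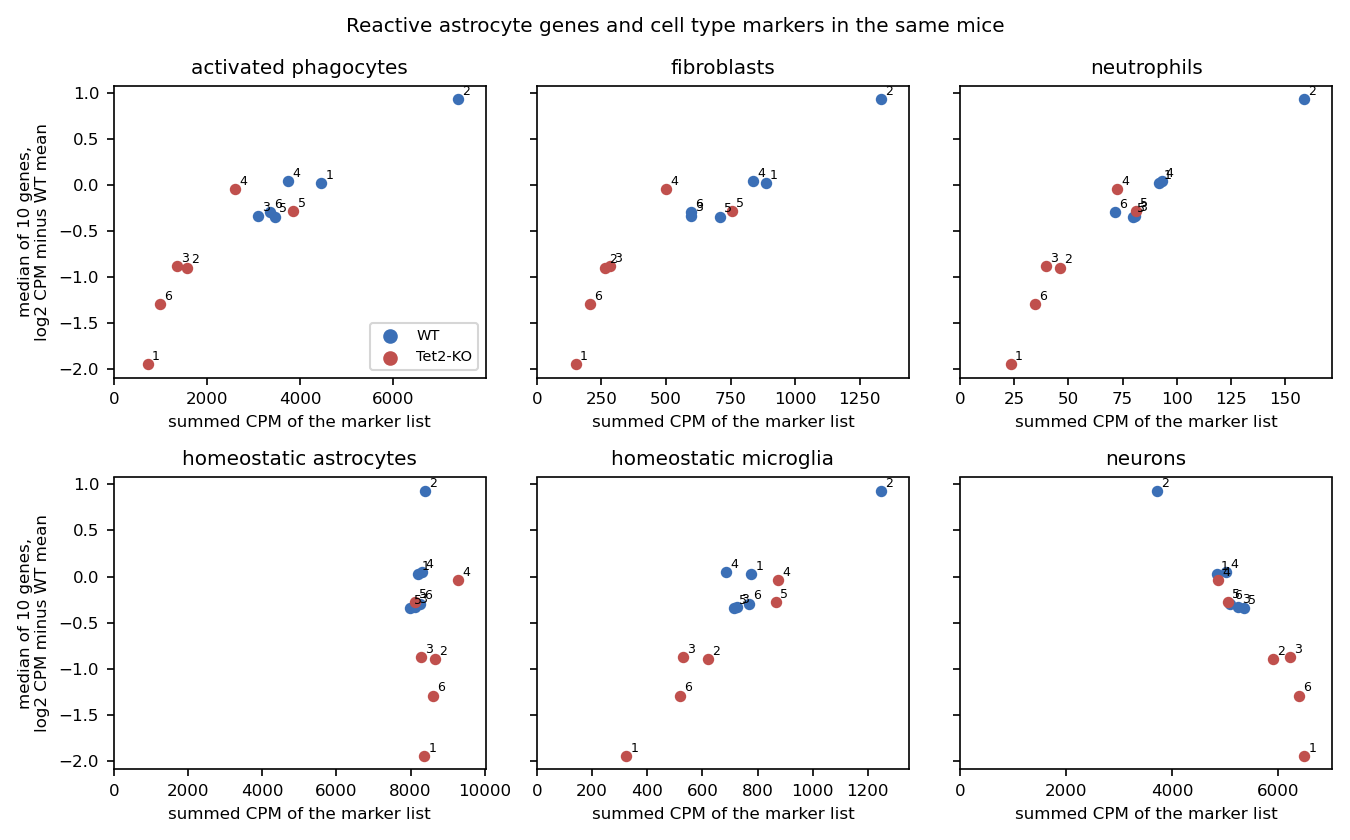
The median over the 10 genes of log2 CPM minus the WT mean (vertical axis) against the summed CPM of 6 marker lists (horizontal axes from 0) in WT (blue) and Tet2-KO (red) mice numbered by replicate. The 4 lowest Tet2-KO mice also have the lowest phagocyte, fibroblast, neutrophil and microglia sums and the highest neuron sums, whereas the resting astrocyte sums lie between 7973 and 9281 CPM in every mouse. Most of the neutrophil sum is Csf3r and most of the phagocyte sum is Apoe. Slc1a2 is the largest part of the resting astrocyte sum.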

How the data were processed

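Brain RNA of 12 mice was depleted of ribosomal RNA and sequenced as paired reads. Per the labels, the authors trimmed reads with Trimmomatic 0.36, aligned them to mm10 with STAR 2.5.2b and counted unique reads in exons with featureCounts (Subread 1.5.2), and the deposited values are raw counts per gene. The strand setting is not given in the sources used here. Of 49315 gene identifiers, 345 had no symbol. The 10 genes and all gene lists were chosen with earlier results of these data known. From the counts, edgeR 4.0.16 (filterByExpr, TMM scaling, robust quasi-likelihood test, R 4.3.3) compared all 6 Tet2-KO with all 6 WT libraries, with Benjamini-Hochberg adjustment over all 20290 tested genes. DESeq2 1.42.0 (Wald test, the study's tool) and limma 3.58.1 (voom with quality weights) were alternatives, beside other scalings, other count filters (at least 10 counts in every library, or none), leaving out mice and a replicate block. CPM used TMM-scaled library sizes, log2 CPM a prior count of 2, and RPKM the union of GENCODE M21 exons. Gfap against the markers was tested by an exact permutation of mice. The main edgeR fit, DESeq2, limma-voom, the replicate block and the permutation test were run on simulated data, in which genes varied independently. The other scalings and count filters were not. Libraries of a group differed beyond sampling noise (chi-square per degree of freedom 1.91 to 24.5 over pairs). The genes named are the 10, up to 3 tested genes with the smallest p of each list, and the 5 genes most like the mean of the 10. Csf3r was named after its values were seen. No batch is given in the labels.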

Additional observations from a re-analysis of the deposited data

Results flagged for a closer look

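WT replicate 2 lay far above the other 5 WT mice for 8 of the 10 genes, by the gap to the next mouse as a share of the range of the group. It was at 1929 CPM for Gfap (next 1021), 520 for Vim (next 279), 132 for Lcn2 (next 58.1) and 406 for Serpina3n (next 184). It was at 75.7 CPM for Osmr (next 49.3), 105 for Cd44 (next 52.8), 109 for S1pr3 (next 49.7) and 50.4 for Steap4 (next 23.8). On the log2 scale, Gfap relative to the resting astrocyte markers was 2.88 in this mouse and 2.14 in the next. Of 22 groups of values examined, 9 stood out in this way, all through the same mouse, where chance gives about 1 in 20. These values are not independent, as they come from 1 library. No Tet2-KO mouse stood out by this measure. Without this mouse, the mean of the other 5 WT mice was 884 ± 112 CPM for Gfap, 40.7 ± 12.8 for Lcn2 and 18.8 ± 4.33 for Steap4 (SD, n = 5).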

How the results depend on the processing

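Each of the 10 fold changes stayed below 0 in all 20 alternatives, which gave 200 values. The number of genes with an adjusted p below 0.05 was 0 in all of them but limma-voom with quality weights, which gave 5. Apart from leaving out 1 mouse, the number at an unadjusted p below 0.05 was 5 to 7, except for 8 with limma-voom. In these alternatives the share of all genes at that level, in either direction, was 13.2% to 26.4%. When single mice were left out, the number at an unadjusted p below 0.05 ran from 3 to 8, and the share of all genes from 15.3% to 28.0%. The number with an adjusted p below 0.05 was then 0 each time, and the median log2 fold change ran from -1.003 to -0.56. The replicate numbers did not pair the mice (correlations of deviations from -0.17 to 0.23, above 0.1 in 1 of 6 pairs), and with the number as a replicate block 0 genes passed the adjusted and 6 the unadjusted threshold, with a median of -0.88. The difference of Gfap from the resting astrocyte markers kept its sign and missed p below 0.05 in all 16 alternatives, with -0.50 to -0.15 when single mice were left out, -0.25 with Aldh1l1, Slc1a3 and Aqp4 as the reference, and an exact sign-flip p of 0.375 over pairs of equal number. The ratio of Nes to Gfap changed sign, from -0.12 to 0.11, when single mice were left out, and that of Aspg had an exact permutation p of 0.0325 without Tet2-KO replicate 5. Of 480 recomputed counts for the other gene lists, 431 stayed within 1.5 times of the reported count, 32 were below and 17 above. Over all genes, the number with an edgeR adjusted p below 0.05 was 5, 44 with no filter on low counts, 0 with the stricter filter and 2257 without Tet2-KO replicate 5, while DESeq2 gave 898 and limma-voom 2013. The causes of these changes were not tested. Steap4 and Lcn2 had 12 and 21 counts in their lowest library, so their lowest values carry the greatest counting error.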
